A study of Mus musculus with 12 samples.

Results

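The Grainyhead and CP2 genes Grhl1, Grhl2, Grhl3, Tfcp2, Tfcp2l1 and Ubp1 form 1 family of DNA-binding transcription factors, and their RNA was followed in cultured mouse embryonic salivary glands. The members were found by symbol among the 52636 gene identifiers of the count table: all 6 are present, and all 6 are among the 15859 genes with enough reads to be tested. The glands were taken from E13.5 embryos and grown for 2 days on filter membranes. The FGFRi group (3 libraries, wild type) received SU5402, a small molecule inhibitor of FGF receptor kinases, at 2.5 µM, and the DMSO group (3 libraries, wild type) its solvent. The HOM, HET and WT groups (2 libraries each, no treatment) are homozygous, heterozygous and wild-type littermates of a cross named K14Cre-Fgfr2b, in which Cre driven by the keratin 14 promoter acts in epithelium on the Fgfr2b isoform of an FGF receptor gene. The libraries hold whole glands, epithelium and mesenchyme together, so fewer cells of a type and less RNA per cell cannot be told apart.

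Grainyhead factors are named after a fly gene needed for the cuticle. Their mammalian members Grhl1, Grhl2 and Grhl3 bind the promoters and enhancers of genes for adhesion, tight junctions and the skin barrier, and Grhl2 and the repressor Zeb1 hold each other down in human epithelial cells. The CP2 branch holds Tfcp2 and Ubp1, present in most cells, and Tfcp2l1, which in the mouse is needed for the maturation of duct cells in kidney and salivary gland and is also part of the pluripotency network of embryonic stem cells.

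RefSeq promoter windows of 300 bases (250 before to 50 after a transcription start, build GRCm38.p6) were matched for 5 of the 6 members. Those below are shown because Grhl1 and Tfcp2l1 are the members whose RNA moved most with the inhibitor, Grhl3 is the other member whose window holds the searched E-box, and Rab25 is a Grainyhead target that fell and whose window holds a Grainyhead core. Capitals mark the Grainyhead core AACCNGTT and the E-box CACCTG that ZEB and SNAIL repressors bind, searched on both strands; in capitals the E-box may read as its reverse complement.
Tfcp2l1, chr1:118627695-118627994 (+): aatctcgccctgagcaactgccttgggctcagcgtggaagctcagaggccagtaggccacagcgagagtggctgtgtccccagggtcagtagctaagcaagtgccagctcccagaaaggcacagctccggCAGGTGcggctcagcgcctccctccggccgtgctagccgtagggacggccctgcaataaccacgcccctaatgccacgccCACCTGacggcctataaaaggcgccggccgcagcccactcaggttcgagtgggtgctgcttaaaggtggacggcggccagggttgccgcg
Grhl3, chr4:135573583-135573882 (-): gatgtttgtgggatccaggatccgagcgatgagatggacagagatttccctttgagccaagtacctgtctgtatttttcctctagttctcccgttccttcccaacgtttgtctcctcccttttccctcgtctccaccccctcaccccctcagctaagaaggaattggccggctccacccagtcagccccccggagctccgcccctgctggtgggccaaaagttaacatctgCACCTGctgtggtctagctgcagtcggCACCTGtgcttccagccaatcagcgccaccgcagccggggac
Grhl1, chr12:24572037-24572336 (+): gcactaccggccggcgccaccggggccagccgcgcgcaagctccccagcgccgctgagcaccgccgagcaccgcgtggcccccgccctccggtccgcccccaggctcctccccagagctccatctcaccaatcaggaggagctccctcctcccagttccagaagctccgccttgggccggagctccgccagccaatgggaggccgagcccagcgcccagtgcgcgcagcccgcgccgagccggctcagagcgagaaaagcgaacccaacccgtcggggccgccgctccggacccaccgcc
Rab25, chr3:88548230-88548529 (-): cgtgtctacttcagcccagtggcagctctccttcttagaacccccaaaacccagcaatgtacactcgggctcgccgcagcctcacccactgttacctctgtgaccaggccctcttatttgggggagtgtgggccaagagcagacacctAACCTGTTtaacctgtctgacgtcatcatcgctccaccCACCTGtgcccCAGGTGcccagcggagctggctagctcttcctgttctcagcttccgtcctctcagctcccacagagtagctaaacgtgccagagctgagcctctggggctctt
The Tfcp2l1 window has 2 matches of CACCTG, starting at -120 and -40 from the transcription start, and the Grhl3 window has 2, at -19 and 8. The windows of Grhl1, Tfcp2 and Ubp1 have none, where 20.2% of 32851 promoter windows of this length hold the motif. The strict palindrome AACCGGTT is in 0.146% of all windows, and AACCNGTT, which includes it, in 2.09%; neither is in a window of the family. Of the Grainyhead target genes described below, 10 of 16 had a window: AACCNGTT is in those of Rab25 and Tgm5, and CACCTG in those of Cldn3, Cldn4, Epcam and Rab25. The paired CP2 site, CCAG and again CCAG with 6 free bases between, is in 3.44% of all windows and in none of the family or of these targets. CCGGAAGT, a site of ETS factors, is in 3.89% of all windows and among these genes in that of Spint1.

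Total counts ran from 6043701 to 22322182 per library, and replicate libraries differed by more than sampling noise. Counts over the whole Fgfr2 gene do not separate the deleted isoform and check nothing about the deletion: Fgfr2 was at 89.2 and 94.4 CPM (reads scaled to a common library size) in HOM, 86.2 and 99.9 CPM in HET and 101 and 99.2 CPM in WT. Xist and genes of the Y chromosome mark HOM 1 and HOM 2 as female and all 4 WT and HET libraries as male, so sex and the deletion cannot be told apart. All FGFRi libraries and DMSO 1 and DMSO 3 were female, and DMSO 2 was male. Only DMSO holds both sexes, so a fit with sex as a covariate takes its sex term from DMSO 2 against DMSO 1 and DMSO 3. Such a fit cannot separate sex from the deletion, and its HOM values below carry the deviation of DMSO 2. The 15 pan-epithelial markers, all detected, summed to 1782 to 1857 CPM in FGFRi against 2141 to 2546 CPM in DMSO, and to 1336 to 1413 CPM in HOM against 1757 to 1955 CPM in HET and 2061 to 2089.8 CPM in WT. The 10 mesenchymal markers summed to 3507 to 4866 CPM in FGFRi against 2088 to 2247 CPM in DMSO, and to 3611 to 3757 CPM in HOM against 3216 to 3549 CPM in HET and 2312 to 2372 CPM in WT. Of these 10 markers, 10 rose with FGFRi and 7 rose in HOM against WT and HET, as did 8 and 6 of 8 tested skeletal muscle markers. Among all tested genes 9.73% were called higher with FGFRi and 3.44% in HOM. Against HET alone 0 of the 10 mesenchymal and 0 of the 8 muscle markers were called in HOM. In HET against WT 4 and 3 of them were called higher, where 0.851% of all tested genes were. DMSO 3 and WT 1 stand apart by 18 stratified epithelium genes, which summed to 765 and 730.3 CPM there and to 97.6 to 496 CPM in the other 10 libraries. By its sex, DMSO 2 comes from another embryo than DMSO 1 and DMSO 3. Whether the other replicate libraries come from separate embryos is not in the labels. The p-values therefore rest on the spread among libraries alone, and between those other replicates that spread may be technical.

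Per kilobase of exon, Tfcp2l1 was the most abundant member in every group and Tfcp2 the least. Tfcp2l1 had 138 ± 39.1 CPM per kilobase in FGFRi, 77.3 ± 22.4 in DMSO, 49.2 ± 0.309 in HOM, 71.9 ± 2.00 in HET and 75.4 ± 1.11 in WT (SD, n = 3, 3, 2, 2 and 2). Grhl1, Grhl2 and Ubp1 had group means of 9.66 to 15.2 CPM per kilobase, Grhl3 of 4.52 to 7.52 and Tfcp2 of 1.79 to 1.99. The order within the middle trio differed between groups. Grhl1 stood above Grhl2 and Ubp1 in DMSO, HET and WT. In HOM, Ubp1 at 12.01 ± 0.149 CPM per kilobase stood above Grhl1 at 10.05 ± 0.184 and Grhl2 at 9.66 ± 0.382. In FGFRi the 3 means, 9.72 for Grhl1, 9.97 for Grhl2 and 10.06 for Ubp1, lay within their SDs of each other.

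**Figure D1:**
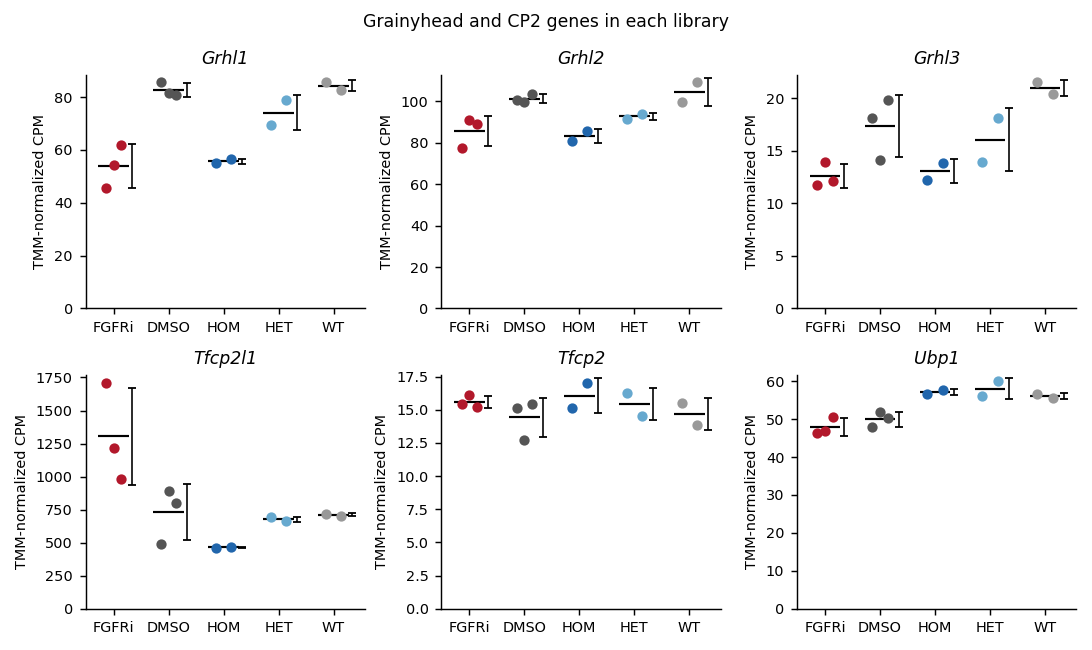
TMM-normalized CPM of each family gene (vertical axis, linear from 0, own scale per panel) in every library of FGFRi, DMSO, HOM, HET and WT; points are libraries, horizontal lines means and bars 1 SD (n = 3, 3, 2, 2 and 2). The 3 FGFRi libraries sit above all DMSO libraries for Tfcp2l1 (983 CPM and more against 894 CPM and less) and below them for Grhl1 and Grhl2.

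FGFRi was compared with DMSO to ask how inhibition of FGF receptors changes the gland. In the family, 3 of 6 genes were called: Tfcp2l1 rose, and Grhl1 and Grhl2 fell. When libraries were scaled to pan-epithelial genes the call of Tfcp2l1 held, that of Grhl1 was lost and Grhl2 turned in sign; with library totals the calls of Grhl1 and Grhl2 were both lost. A call is an adjusted p under 0.05 in edgeR's quasi-likelihood test over all genes, and 20.5% of all tested genes were called here, 9.73% higher and 10.7% lower. The median log2 change of the family was -0.15, against -0.02 over all genes tested.

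Grhl1 binds desmosomal cadherin genes in the epidermis, and its loss in mice weakens hair anchoring. It was read at 45.5, 54.1 and 61.9 CPM in FGFRi and at 85.6, 81.7 and 80.8 CPM in DMSO. Every FGFRi library lay below every DMSO library; in 37.7% of all tested genes the groups likewise did not overlap, in either direction. Grhl1 fell, in log2 units, by 0.60 ± 0.09 (SE, with an adjusted p of 0.000513) to 0.660 times its DMSO level, and ranked 432 of 15859 genes by p. The call held without each library in turn (changes of -0.72 to -0.48) and without DMSO 2, within female libraries, at -0.61 (adjusted p = 0.00205). With libraries scaled to pan-epithelial genes the change was -0.26 (adjusted p = 0.0996), and with library totals -0.58 (adjusted p = 0.0642).

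Grhl2 activates Cdh1 and claudin genes in epithelia and is needed for closure of the neural tube in mice. It stood at 77.6, 91.1 and 88.9 CPM in FGFRi and at 101, 99.7 and 104 CPM in DMSO. The groups did not overlap, and the step between the nearest libraries, 91.1 and 99.7 CPM, was small. Grhl2 fell, in log2 units, by 0.23 ± 0.07 (SE, with an adjusted p of 0.0362), and turned to 0.11 when scaled to pan-epithelial genes. The call was lost when any 1 of the 6 libraries was left out (adjusted p of 0.05004 to 0.227), and DESeq2 gave an adjusted p of 0.0676. Its exons share 169 bases with the antisense gene Gm16136, and whether counting used strand is not known.

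Grhl3 drives formation of the skin barrier in mice. It had 11.7, 13.9 and 12.2 CPM in FGFRi and 18.1, 14.2 and 19.9 CPM in DMSO. FGFRi libraries were the lowest 3 of the 6, with DMSO 2 close above them. The log2 change of -0.42 ± 0.15 (SE, 95% interval -0.73 to -0.11) missed the threshold (adjusted p = 0.0545), and without DMSO 2, the male library, it was -0.59 (adjusted p = 0.0150).

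Tfcp2l1 was the family gene that went up. Its levels were 1708, 1220.1 and 983 CPM in FGFRi and 490.2, 894 and 803 CPM in DMSO. No FGFRi library overlapped DMSO, although the libraries of each group were spread widely, with FGFRi 1 the highest and DMSO 1 the lowest. The log2 change was 0.84 ± 0.20 (SE, adjusted p = 0.00757), a 1.78-fold higher level. Without FGFRi 1 it was 0.62 (adjusted p = 0.0425), without DMSO 1 0.62 (adjusted p = 0.0194), and with libraries scaled to pan-epithelial genes 1.19.

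Tfcp2, also known as LSF, and Ubp1, also known as LBP-1, are CP2 factors of most tissues. Tfcp2 had 15.4, 16.1 and 15.2 CPM in FGFRi and 15.1, 12.7 and 15.4 CPM in DMSO, overlapping groups with a log2 difference of 0.13 ± 0.12 (SE, adjusted p = 0.464). Ubp1 had 46.2, 46.8 and 50.6 CPM in FGFRi and 47.9, 51.9 and 50.2 CPM in DMSO, also overlapping, with a difference of -0.06 ± 0.07 (SE, adjusted p = 0.614). The 95% intervals were -0.11 to 0.38 for Tfcp2 and -0.22 to 0.10 for Ubp1. Scaled to pan-epithelial genes, Tfcp2 was higher by 0.48 and Ubp1 by 0.29 (adjusted p = 0.0159 and 0.0388), where the median of all genes shifted by 0.35. Exons of Ubp1 overlap those of Fbxl2 on the opposite strand over 496 bases.

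**Figure D2:**
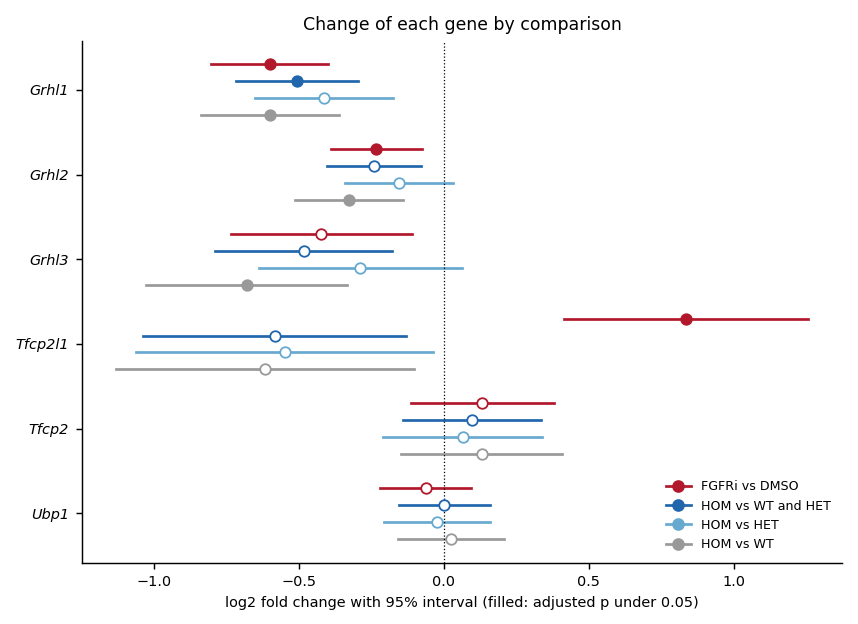
Log2 fold changes (horizontal axis) with 95% intervals from edgeR for the 6 genes in FGFRi against DMSO and in HOM against WT and HET, HET alone and WT alone; filled circles have an adjusted p under 0.05. Tfcp2l1 lies right of 0 with FGFRi (0.84) and left of 0 in HOM (-0.58, -0.55 and -0.62), and Grhl1, Grhl2 and Grhl3 lie left of 0 throughout under TMM scaling (scaled to pan-epithelial genes, Grhl2 turns to 0.11 with FGFRi, and Grhl1, Grhl2 and Grhl3 to 0.0041, 0.27 and 0.020 in HOM against WT and HET).

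HOM was compared with its littermates to ask what epithelial Fgfr2b deletion changes. Against WT and HET together, 1 of 6 family genes was called, Grhl1, which was lower except under pan-epithelial scaling. Of all tested genes 5.88% were called, 2.44% lower and 3.44% higher. The family's median log2 change was -0.36, against 0.00055 over all genes. Grhl1 had 54.9 and 56.4 CPM in HOM, 69.5 and 78.7 CPM in HET and 85.8 and 82.8 CPM in WT. HOM libraries lay below all 4 controls, where the groups did not overlap in 25.6% of tested genes, and HET libraries lay below both WT libraries. Grhl1 fell, in log2 units, by 0.51 ± 0.10 (SE, with an adjusted p of 0.00733), but stood at 0.0041 when scaled to pan-epithelial genes. The adjusted p was 0.0629 without HOM 1, 0.105 without HOM 2 and 0.290 with sex as a covariate.

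Grhl2 had 80.9 and 85.5 CPM in HOM, 91.6 and 93.8 CPM in HET and 99.6 and 109 CPM in WT. Grhl3 had 12.2 and 13.9 CPM in HOM, 13.9 and 18.2 CPM in HET and 21.5 and 20.4 CPM in WT. The HOM libraries were the lowest of both genes, with Grhl3 in HOM 2 (13.86 CPM) just under HET 1 (13.93 CPM). Against WT and HET the log2 differences were -0.24 ± 0.08 for Grhl2 (SE, adjusted p = 0.0793) and -0.48 ± 0.14 for Grhl3 (SE, adjusted p = 0.0599), and turned to 0.27 and 0.020 when scaled to pan-epithelial genes.

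Tfcp2l1 had 462 and 466 CPM in HOM, 692 and 665 CPM in HET and 719 and 704 CPM in WT. Within these 6 libraries replicates lay close together, and both HOM libraries stood well under every control. The log2 difference from WT and HET was -0.58 ± 0.21 (SE, adjusted p = 0.130) in the model of all 12 libraries, which shares 1 estimate of spread with the scattered FGFRi and DMSO values. In a model of the HOM, HET and WT libraries alone it was -0.58 ± 0.09 (SE, adjusted p = 0.00103). Scaled to pan-epithelial genes it was -0.07, and with sex as a covariate -0.12 (adjusted p = 0.958).

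Tfcp2 had 15.1 and 17.004 CPM in HOM, 16.3 and 14.6 CPM in HET and 15.5 and 13.8 CPM in WT. Ubp1 had 56.6 and 57.6 CPM in HOM, 56.0 and 60.1 CPM in HET and 56.7 and 55.6 CPM in WT. Both overlapped between genotypes. Log2 differences from WT and HET were 0.10 ± 0.11 (SE, adjusted p = 0.706) and 0.0018 ± 0.07 (SE, adjusted p = 0.996), with 95% intervals of -0.14 to 0.33 and -0.16 to 0.16. Scaled to pan-epithelial genes, they were 0.61 and 0.51 (adjusted p = 0.00151 and 0.000747), where the median of all genes shifted by 0.51.

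Against HET alone, whose mesenchymal marker sum was nearest that of HOM, edgeR called 0 of 6 family genes, with 1.49% of all genes called, 0.618% higher and 0.876% lower. At an unadjusted p under 0.05 there were 2, Grhl1 (-0.41 ± 0.11, SE, adjusted p = 0.0902) and Tfcp2l1 (-0.55 ± 0.24, SE, adjusted p = 0.354), and DESeq2 called 1. Against WT alone, 3 of 6 were called lower, with 7.56% of all genes called, 4.5% higher and 3.06% lower: Grhl1 fell by 0.60 ± 0.11, Grhl2 by 0.33 ± 0.09 and Grhl3 by 0.68 ± 0.16 in log2 units (SE, adjusted p = 0.00467, 0.0337 and 0.0195), and when scaled to pan-epithelial genes Grhl2 turned to 0.27 while Grhl1 stood at -0.0047 and Grhl3 at -0.09, so that all 3 calls ended. The median of all genes shifted there by 0.59. The count was 1 without HOM 1, HOM 2 or WT 2 and 0 without WT 1. In HET against WT edgeR called 0 of 6 and 1.22% of all genes, 0.851% higher and 0.372% lower; 1 family gene, Grhl3 at -0.39 ± 0.16 (SE, adjusted p = 0.307), had an unadjusted p under 0.05, and DESeq2 called 0.

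The difference between the effects of FGFRi and of HOM was itself tested. It was called for 1 of 6 family genes, Tfcp2l1, where 2.77% of all genes were called, 1.36% higher and 1.41% lower. The FGFRi effect on Tfcp2l1 lay 1.42 ± 0.29 above the HOM effect in log2 units (SE, adjusted p = 0.0188, 95% interval 0.80 to 2.04). All 3 FGFRi libraries were above all DMSO libraries and both HOM libraries below all 4 WT and HET libraries. The adjusted p was 0.0719 without HOM 1, 0.133 without HOM 2 and 0.0807 with sex as a covariate. For the other 5 genes the difference ran from -0.09 (Grhl1) to 0.06 (Grhl3), with adjusted p of 0.786 to 0.985 and 95% intervals that reach from -0.38 to 0.19 for Grhl1 and from -0.37 to 0.50 for Grhl3.

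Ratios within a library do not depend on its scaling. FGFRi libraries had 22.002, 13.4 and 11.1 Tfcp2l1 reads per Grhl2 read and DMSO libraries 4.87, 8.97 and 7.76. All FGFRi ratios were the higher ones, a 2.13-fold difference (two-sided exact permutation p = 0.1, the smallest 3 against 3 libraries allow). HOM libraries had 5.71 and 5.45, HET libraries 7.55 and 7.09 and WT libraries 7.21 and 6.44 Tfcp2l1 reads per Grhl2 read. HOM ratios lay below all 4 controls, at 0.790 times their level (two-sided exact permutation p = 0.133, the smallest 2 against 4 allow). Grhl1 reads per Grhl2 read were 0.586, 0.594 and 0.697 in FGFRi and 0.850, 0.819 and 0.780 in DMSO. They were 0.680 and 0.659 in HOM, 0.759 and 0.839 in HET and 0.862 and 0.758 in WT. Grhl1 was thus lower relative to Grhl2 in every FGFRi and every HOM library than in their controls (exact permutation p = 0.1 and 0.133, again the smallest possible). Grhl3 reads per Grhl2 read overlapped in both comparisons, at 0.137 to 0.153 in FGFRi against 0.142 to 0.192 in DMSO, and at 0.151 to 0.162 in HOM against 0.152 to 0.216 in HET and WT.

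Set against the summed pan-epithelial markers, Tfcp2l1 had 547 to 958 CPM per 1000 marker CPM in FGFRi and 220.5 to 375 in DMSO, without overlap and 2.28-fold apart. In HOM it had 329.8 and 346, which overlapped the 341 to 379 of HET and WT. Grhl1 had 39.9 and 41.1 CPM per 1000 marker CPM in HOM and 35.6 to 44.8 in HET and WT, also overlapping. Grhl2 had 60.5 in both HOM libraries, above the 46.9 to 53.4 of HET and WT. Tfcp2, at 11.3 and 12.03 against 6.71 to 8.33, and Ubp1, at 40.8 and 42.4 against 26.95 to 34.2, were above too. In log2 units Grhl2, Tfcp2 and Ubp1 stood higher by 0.27, 0.61 and 0.52 (exact permutation p = 0.133 each, the smallest possible). Scaling libraries to these markers shifted the median of all genes by 0.51. The part of epithelial content in the lower CPM of Grhl1, Grhl2 and Tfcp2l1 in HOM was not tested further.

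**Figure D3:**
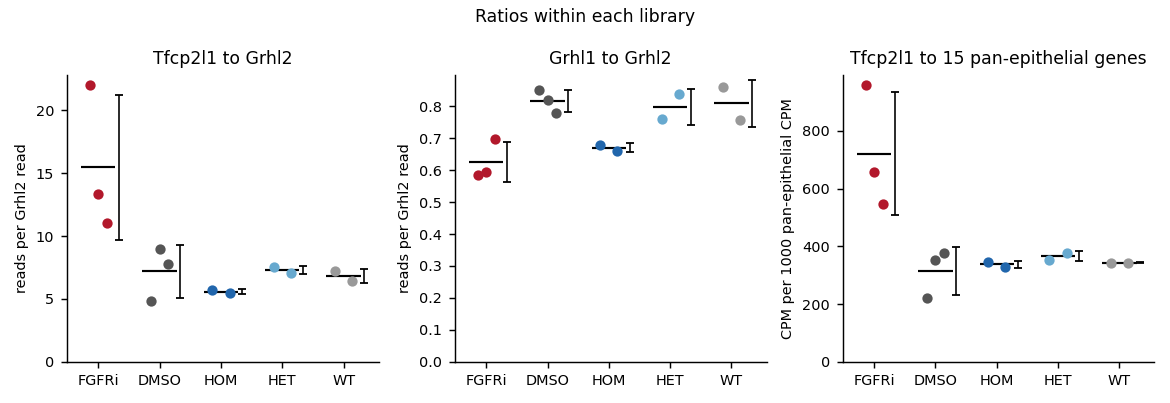
Tfcp2l1 and Grhl1 reads per Grhl2 read, and Tfcp2l1 CPM per 1000 summed CPM of 15 pan-epithelial genes (vertical axes, linear from 0), in every library of FGFRi, DMSO, HOM, HET and WT; points are libraries, lines means and bars 1 SD. Tfcp2l1 stands above its controls in FGFRi on both scales (11.1 to 22.002 against 4.87 to 8.97 reads per Grhl2 read), whereas HOM lies below controls per Grhl2 read and overlaps them per pan-epithelial CPM.

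The 16 Grainyhead target genes, known from epidermis, kidney and other epithelia, code for junction proteins, their regulators and barrier enzymes. With FGFRi, 9 fell, 0 rose and 7 did not pass, where 10.7% of all tested genes were called lower and 9.73% higher. The median log2 change was -0.40, against -0.02 over all genes. Their summed level was 1386 to 1578 CPM in FGFRi and 1872 to 2086 CPM in DMSO, and the groups did not overlap. With library totals as the scale 2 fell, where 285 of 15859 tested genes were called lower. With pan-epithelial scaling 2 fell and 2 rose, where 206 of all tested genes were called lower and 5567 higher. The 3 largest falls under TMM were in Prom2, a membrane protein of epithelial protrusions, at -0.95 ± 0.16, the tight junction gene Cldn3 at -0.71 ± 0.15 and the transcription factor gene Ovol1 at -0.66 ± 0.16 (SE, adjusted p = 0.00104, 0.00347 and 0.00792). Epcam, a surface adhesion protein, and Erbb3, an EGF family receptor, fell by 0.49 ± 0.08 and 0.48 ± 0.09 (SE, adjusted p = 0.000824 and 0.00178). Spint1, a matriptase inhibitor, Rab25, a recycling GTPase, Cdh1 (E-cadherin) and Esrp1, an epithelial splicing factor, fell by 0.42, 0.39, 0.37 and 0.37 (adjusted p = 0.00296, 0.00537, 0.00956 and 0.000950).

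Rab25, whose promoter is printed above, was at 28.4, 34.9 and 30.4 CPM in FGFRi and 41.4, 41.1 and 40.6 CPM in DMSO. The DMSO libraries were nearly equal and all above FGFRi, yet the log2 change shrank to -0.04 when scaled to pan-epithelial genes. Of the 7 that did not pass, Cldn4, another tight junction gene and a Grhl2 target, was at -0.18 ± 0.08, the epidermal regulator Zfp750 at -0.19 ± 0.08 and the RhoA exchange factor Arhgef19 at -0.05 ± 0.08 (SE, adjusted p = 0.139, 0.132 and 0.762). The transglutaminase genes Tgm1 and Tgm5 were at -0.45 ± 0.35 and 0.52 ± 0.24, and the transcription factor gene Ovol2 at -0.08 ± 0.20 (SE, adjusted p = 0.409, 0.138 and 0.832). The desmosomal cadherin Dsg1a was at -0.84 ± 1.29 (SE, adjusted p = 0.709). Its DMSO libraries ran from 0 to 16.7 CPM, and without DMSO 3 and WT 1 the sign turned (4.18).

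In HOM against WT and HET, 5 targets fell, 0 rose and 11 missed the threshold, where 2.44% of all tested genes were called lower and 3.44% higher. The median over the 16 was -0.42, against 0.00055 over all genes. Their summed level was 1416 to 1469.8 CPM in HOM, 1699 to 1755 CPM in HET and 1922 to 2009.9 CPM in WT, in that order with no overlap. Cldn4 fell, in log2 units, by 0.54 ± 0.09 (SE, with an adjusted p of 0.00218) and by 0.03 when scaled to pan-epithelial genes. Its levels were 62.1 and 67.6 CPM in HOM, 101 and 86.7 CPM in HET and 96.1 and 95.1 CPM in WT, with HOM below all controls. Cdh1 fell by 0.47 ± 0.10, Zfp750 by 0.43 ± 0.09, Spint1 by 0.42 ± 0.09 and Esrp1 by 0.32 ± 0.07 (SE, adjusted p = 0.0110, 0.0106, 0.0114 and 0.0114), and these 4 turned to 0.045, 0.082, 0.092 and 0.20 under pan-epithelial scaling. Cldn3, at -0.55 ± 0.15 (SE, adjusted p = 0.0502), missed the threshold narrowly. Without HOM 1 or HOM 2 the count of called targets was 1, without WT 2 it was 2, and with sex as a covariate 0. Scaled to pan-epithelial genes, 4 targets were called and all 4 were higher, where 10144 of 15859 tested genes were called higher and 76 lower. Against HET alone 2 targets fell, Cldn4 and Spint1, and against WT alone 7 fell, where 0.876% and 3.06% of all tested genes were called lower.

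The 7 repressors of the epithelial programme, which bind E-boxes in epithelial genes or drive mesenchymal fates, went the other way. With FGFRi, 7 of 7 rose, where 9.73% of all tested genes were called higher. Their median log2 change was 1.34, against -0.02 over all genes. The count was 7 under each of the 4 scalings, where pan-epithelial scaling called 5567 of 15859 tested genes higher. Zeb1 was at 27.5 ± 4.56 CPM in FGFRi and 11.9 ± 1.04 CPM in DMSO, and Zeb2 at 58.8 ± 8.83 and 20.1 ± 3.22 CPM (SD, n = 3 each). They rose by 1.16 ± 0.13 and 1.56 ± 0.12, and Snai1, Snai2, Twist1 and Prrx1 by 1.34, 0.98, 1.40 and 1.28 (edgeR adjusted p of 2.71e-06 to 0.000629 for the 6). Twist2 rose by 3.05 ± 0.58 (SE, adjusted p = 0.00194) from few reads, at 1.66 to 3.30 CPM in FGFRi and 0 to 0.364 CPM in DMSO. In HOM against WT and HET, 5 of 7 rose, where 3.44% of all tested genes were called higher, with a median of 0.62 against 0.00055 over all genes. These were Zeb1 at 0.79 ± 0.12, Zeb2 at 0.87 ± 0.11, Snai1 at 0.94 ± 0.19, Twist1 at 0.62 ± 0.17 and Prrx1 at 0.45 ± 0.11 (SE, adjusted p = 0.00111, 0.000532, 0.00869, 0.0474 and 0.0269). Snai2 and Twist2 were at 0.20 ± 0.15 and 0.29 ± 0.52 (SE, adjusted p = 0.533 and 0.834). Without HOM 1 or HOM 2 the count was 2, without HET 2 or WT 1 it was 3, and with sex as a covariate 0. Against HET alone 1 of 7 was called higher in HOM, with a median of 0.35, and against WT alone 5 were, with a median of 0.98. HET itself stood above WT, with 1 of 7 called higher and a median of 0.73. Of all tested genes 0.618%, 4.5% and 0.851% were called higher in these 3 comparisons. Most of these genes are also expressed in mesenchyme, whose marker sums are given above and rose alongside, and Prrx1 is on both lists; the part of mesenchymal content was not tested.

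**Figure D4:**
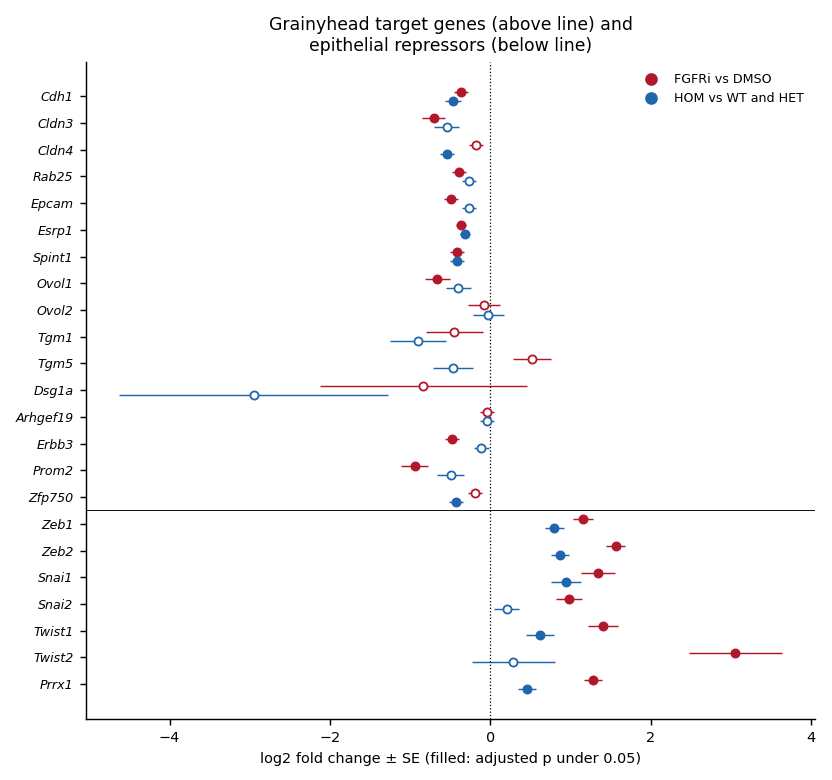
Log2 fold changes ± SE (horizontal axis) of 16 Grainyhead target genes and 7 repressors in FGFRi against DMSO and HOM against WT and HET; filled circles have an adjusted p under 0.05. Under TMM scaling the called targets (9 with FGFRi, 5 in HOM) lie left of 0 and the called repressors (7 and 5) right of it; scaled to pan-epithelial genes, 4 of the 5 called in HOM turn to the right.

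Of 9 genes linked to Tfcp2l1 in the kidney collecting duct, 5 had enough reads to be tested, and Atp6v1g3 had no read in any library. With FGFRi, Foxi1 rose, Jag1 fell and 3 did not pass, where 9.73% of all tested genes were called higher and 10.7% lower. Foxi1, a forkhead factor of ionocytes and kidney intercalated cells, was at 7.03 to 18.3 CPM in FGFRi and 4.68 to 7.32 CPM in DMSO. The ranges overlap slightly, and the log2 change of 1.15 ± 0.35 (SE, adjusted p = 0.0291) was not called without FGFRi 1, FGFRi 2, DMSO 2 or DMSO 3 (adjusted p of 0.0580 to 0.136). Jag1, a Notch ligand, was at 49.2 ± 1.75 CPM in FGFRi and 103 ± 6.98 CPM in DMSO (SD, n = 3 each), a change of -1.07 ± 0.09 (SE, adjusted p = 2.95e-06). The proton pump subunits Atp6v1b1 and Atp6v0a4 were at 0.22 ± 0.11 and 0.93 ± 0.48, and the carbonic anhydrase Car2 at -0.0022 ± 0.22 (SE, adjusted p = 0.180, 0.192 and 0.997). In HOM against WT and HET, 1 of 5 was called, where 2.44% of all tested genes were called lower and 3.44% higher. Atp6v0a4 fell by 1.70 ± 0.47 (SE, adjusted p = 0.0461), at 0.400 and 0.827 CPM in HOM and 1.14 to 3.14 CPM in HET and WT. That call was lost without each of HOM 1, HOM 2, HET 2, WT 1 and WT 2 (adjusted p of 0.0765 to 0.245). Jag1 was at -0.07 ± 0.09 there (SE, adjusted p = 0.713), turning to 0.44 when scaled to pan-epithelial genes.

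Of 10 salivary duct markers, 5 rose with FGFRi, 2 fell and 3 did not pass, and in HOM against WT and HET 1 rose, 4 fell and 5 did not pass. Of all tested genes, 9.73% were called higher and 10.7% lower with FGFRi, and 3.44% higher and 2.44% lower in HOM. Markers of the end buds and acini, the secretory part of the gland's epithelium, moved as well: with FGFRi 10 of 11 fell and 0 rose, with a median log2 change of -1.48, and in HOM 2 fell and 1 rose, with a median of -0.41. Their summed level was 469 to 642 CPM in FGFRi against 905 to 1178 CPM in DMSO, without overlap, and 842 to 876 CPM in HOM against 869 to 1033 CPM in HET and 924 to 957 CPM in WT. Their part in the changes of Tfcp2l1 and of the duct markers was not tested. The risers with FGFRi were the duct keratins Krt19 and Krt7, Ascl3, a factor of duct ionocytes, Wnt10b, and Gfra3, by 0.65 ± 0.19, 0.74 ± 0.21, 1.66 ± 0.49, 1.79 ± 0.45 and 1.41 ± 0.47 (SE, adjusted p = 0.0252, 0.0197, 0.0260, 0.0111 and 0.0452). Krt7 is on both the duct and the pan-epithelial list. The 2 that fell were the calcium-activated potassium channel gene Kcnn4 by 1.73 ± 0.14 and the ETS factor gene Elf5 by 0.44 ± 0.10 (SE, adjusted p = 3.36e-06 and 0.00471). In HOM the falls were in the chloride channel Cftr, Ehf, Elf5 and the secreted iron-binding protein Ltf, by 1.17 ± 0.16, 0.61 ± 0.08, 0.42 ± 0.10 and 2.09 ± 0.25, and Gfra3 rose by 1.64 ± 0.43 (SE, adjusted p = 0.000620, 0.000646, 0.0206, 0.000303 and 0.0346). Among 6 genes linked to Tfcp2 or Ubp1 in cell lines, 4 were tested: 0 passed with FGFRi in edgeR, and in HOM 1 rose, the globin gene Hba-a1 by 2.22 ± 0.61 (SE, adjusted p = 0.0449), at 3.35 and 3.68 CPM in HOM and 0.220 to 1.59 CPM in HET and WT. That value is uncertain, since Hba-a1 has a near-identical copy, Hba-a2. Tyms, the thymidylate synthase gene controlled by LSF in dividing cells, was at -0.29 ± 0.11 with FGFRi and -0.12 ± 0.11 in HOM (SE, adjusted p = 0.0810 and 0.646).

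For each member the 5 genes with the most similar log2 CPM over the 12 libraries were taken, among tested genes with a mean of at least 5 CPM, as a description only, since the libraries share groups, depth and cell makeup. Grhl1 ran closest to Cgn, the tight junction protein cingulin (Pearson r = 0.988, Spearman rho = 0.972, 12 libraries), then Marveld3, Sft2d2, Lrrc1 and Rab11fip4 (r of 0.961 to 0.970). Grhl2 ran with Marveld3, a tight junction membrane protein (r = 0.942, rho = 0.951), Jup, Elf5, Cdh1 and Pak1ip1. Grhl3 ran with Mgat5, Nuak2, Cyfip1, Celsr1 and the target Ovol1 (r of 0.893 to 0.924). Tfcp2l1 ran with Itprid1, the adaptor Nedd9, Uhrf1bp1l, the phospholipase Plcg2 and the Wnt ligand Wnt4 (r of 0.958 to 0.969). Nearest to Tfcp2 were Scpep1, Podxl2, Ip6k1, Sdc3 and Sept3 (r of 0.879 to 0.904), and nearest to Ubp1 were Cmtr2, Suds3, Dffa, Tle1 and Ddx17 (r of 0.934 to 0.963). Marveld3 is the name shared by the lists of Grhl1 and Grhl2.

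**Figure D5:**
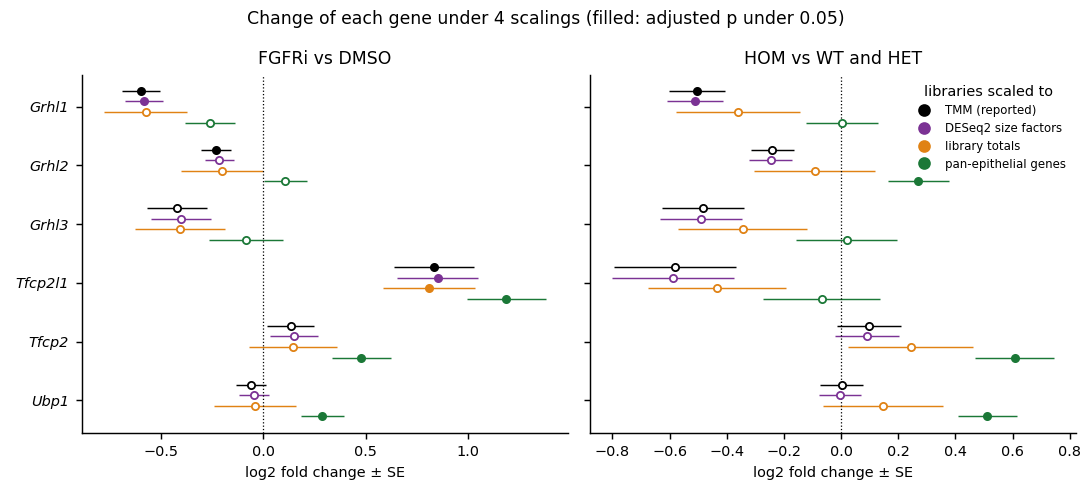
Log2 fold changes ± SE (horizontal axis) of the 6 genes in FGFRi against DMSO and HOM against WT and HET, with libraries scaled by TMM, DESeq2 size factors, library totals or 15 pan-epithelial genes; filled circles have an adjusted p under 0.05. Tfcp2l1 stays right of 0 and called with FGFRi under all 4, while in HOM Grhl1 and Grhl2 turn from -0.51 and -0.24 to 0.0041 and 0.27 under pan-epithelial scaling.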

How the data were processed

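RNA was sequenced after ribosomal RNA depletion from 12 libraries, all with the same batch label. The authors deposited a table of read counts per gene, which are whole numbers and not normalized. Per the submitters' processing notes, bcl2fastq, STAR and build GRCm39 were used; for the counting program, its strand setting and its annotation, the sources used here name nothing. Groups were taken from the labels.

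Genes with few reads were removed (filterByExpr, minimum count 10, minimum total 15), libraries were scaled by TMM, and 1 coefficient per group was fitted over all 12 libraries with edgeR 4.0.16 (R 4.3.3) quasi-likelihood, with Benjamini-Hochberg adjustment over 15859 genes. Ratios were tested with exact permutation tests (scipy 1.17.1). Alternatives used DESeq2 1.42.0, limma 3.58.1, other scalings and filters, left-out libraries, a replicate block and sex as a covariate. Levels are TMM-normalized CPM, per kilobase of exon where genes are compared, and precision follows the total count of each library. The scripts were tested on simulated data. The family's members, all genes of the target, repressor and linked lists, and the 5 genes most alike each member are named. The members and lists were chosen with earlier results of these data known.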

Additional observations from a re-analysis of the deposited data

Results flagged for a closer look

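The effect of FGFRi on Tfcp2l1 differed from the effect of HOM, by the test of the difference itself. The FGFRi effect was 0.84 and the HOM effect -0.58 on the log2 scale, a difference of 1.42 ± 0.29 (SE, edgeR adjusted p = 0.0188). The HOM effect alone was not called in this model (adjusted p = 0.130). All 3 FGFRi libraries stood above DMSO, and both HOM libraries below WT and HET in CPM. Scaled to pan-epithelial genes, the HOM effect was -0.07 and the difference 1.26 (adjusted p = 0.0225); per 1000 pan-epithelial CPM, HOM at 329.8 to 346 overlapped HET and WT at 341 to 379. Over the alternatives the difference ran from 1.13 to 1.59. It missed the threshold without HOM 1 (adjusted p = 0.0719), without HOM 2 (0.133), with sex as a covariate (0.0807) and with a replicate block (0.0551).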

How the results depend on the processing

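With pan-epithelial scaling the median log2 change over all genes shifted by 0.35 in FGFRi against DMSO and by 0.51 in HOM against WT and HET, and with library totals by 0.15 in the second. Under pan-epithelial scaling signs turned for Grhl2 (0.11), Ubp1 (0.29) and Arhgef19 (0.30) with FGFRi. Cldn4 (0.16), Ovol2 (0.28), Zfp750 (0.14) and Car2 (0.34), called in neither scaling, turned too. In HOM against WT and HET they turned for Grhl1 (0.0041), Grhl2 (0.27), Cdh1 (0.045), Epcam (0.25), Esrp1 (0.20), Spint1 (0.092), Ovol2 (0.48), Arhgef19 (0.47), Erbb3 (0.40), Zfp750 (0.082) and Jag1 (0.44), and, called in neither scaling, for Grhl3 (0.020), Rab25 (0.25), Ovol1 (0.10), Tgm5 (0.054), Prom2 (0.011), Atp6v1b1 (0.26) and Car2 (0.33). They also turned in HOM against HET for Ubp1 (0.40) and, uncalled, Grhl1 (0.013), Grhl2 (0.27) and Grhl3 (0.13), in HOM against WT for Grhl2 (0.27), in HET against WT, uncalled, for Tfcp2l1 (0.096), and in the difference of effects, uncalled, for Grhl2 (-0.16), Grhl3 (-0.11) and Tfcp2 (-0.13). Without DMSO 3 and WT 1, Dsg1a with FGFRi was 4.18. All genes called higher and lower numbered 5567 and 206 with FGFRi and 10144 and 76 in HOM against WT and HET under pan-epithelial scaling, against 1543 and 1702, and 546 and 387, under TMM; with library totals they numbered 1018 and 285, and 536 and 97. Pan-epithelial scaling replaces the library size, so it moves the log2 change of every gene in a comparison by about the shift of the median. The turns of sign under that scaling go with this shift. Why the marker sums differed between groups, and why library totals gave fewer calls, was not tested.

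Family genes called in HOM against WT and HET numbered 1, Grhl1 lower. With no filter and in the compared groups alone 3 were called, Grhl1, Grhl3 and Tfcp2l1, all lower, and with limma-voom 2, Grhl1 and Grhl3, both lower. With pan-epithelial scaling 3 other genes were called, Grhl2, Tfcp2 and Ubp1, all higher. Under that scaling 6588 of 15859 tested genes were called higher in HOM against HET, 10236 in HOM against WT and 10144 in this comparison. With library totals or sex as a covariate 0 were called. With library totals 1 was called with FGFRi and 0 in HOM against WT. In HOM against HET, where 0 were called, pan-epithelial scaling gave 2, Tfcp2 and Ubp1, both higher. No filter and the compared groups alone gave 1, Tfcp2l1 lower, and DESeq2 1, Grhl1 lower. In HOM against WT, where 3 were called lower, pan-epithelial scaling gave 2 others, Tfcp2 and Ubp1, both higher; the count was 1 with sex as a covariate and 0 without DMSO 3 and WT 1, and the difference of effects gave 0 with sex as a covariate. Leaving out 1 library gave 2 to 3 with FGFRi, 0 to 2 in HOM against WT and HET, 0 to 1 in HOM against WT and 0 to 1 for the difference. All genes called in HOM against WT and HET numbered 501 without HOM 1, 140 without HOM 2, 46 with sex as a covariate, 1406 in the compared groups alone and 1449 with no filter, against 933.

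Same-numbered libraries had correlations of deviations of -0.147 to -0.025, and libraries of different number -0.069 to 0.161. Between groups of 2 libraries these values mirror each other in sign, so they cannot decide whether replicate numbers pair the samples. With the replicate block the family count was 1 with FGFRi, 3 in HOM against WT and HET, 2 in HOM against HET and 0 for the difference, and all genes called with FGFRi numbered 1561. With the WT numbers crossed in the block it was 3 in HOM against WT and HET, 4 in HOM against WT and 0 in HET against WT. The duct and end bud markers and the genes linked to Tfcp2 or Ubp1 were not recomputed. Depth limits Grhl3 and Tfcp2 most, with 64 and 84 reads in their lowest libraries.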
